A study of Arabidopsis thaliana with 12 samples.

Results

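Root meristem RNA was compared between Arabidopsis thaliana seedlings in which the transcription factor DOF2.1 had been induced for 1 h and matched control seedlings. All plants of both groups were of the Col-0 background and carried pRPS5A::DOF2.1-GR, a construct in which the RPS5A promoter, active in dividing cells, drives DOF2.1 fused to the glucocorticoid receptor's hormone-binding part (GR). Without its ligand dexamethasone (DEX), such a protein is held in the cytoplasm. Seedlings grew for 5 days at 22 °C, the DEX 1 h group then spent 1 h on 10 µM DEX, and the control 1 h group received none. The comparison used 3 DEX 1 h and 3 control 1 h libraries, 6 of the 12 libraries of the study, chosen by their labels alone, and each was made from 300 root tips. The labels do not say whether control seedlings were also moved to new medium. No DEX-treated seedlings without the construct were analysed here, so an effect of DEX itself and an effect of DOF2.1 cannot be told apart.

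DOF proteins are plant zinc finger transcription factors whose DNA-binding domain recognises the short core AAAG. In the root vasculature several of them, among them TMO6 and the PEAR proteins, act downstream of the TMO5/LHW basic helix-loop-helix dimer and of cytokinin, and drive the periclinal divisions that widen the procambium. Around the vascular cylinder lie the ground tissue (endodermis and cortex), the epidermis with its hair and non-hair files, and the root cap, each with its own fate regulators.

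The 6 libraries held 16167813 to 17522834 counts. The DEX 1 h libraries differed more among themselves than the controls did. The median SD of log2 CPM, the depth-normalised read count used throughout, over 13481 loci was 0.118 in the DEX 1 h group and 0.079 in the control group. On the first principal component of the 6 libraries, which held 41.4% of the variance, controls lay from 21.1 to 24.4 and the DEX libraries at -32.8, -22 and -12.5 for replicates 1, 2 and 3. Markers of the root meristem were present in every library, with PLT1 at 19.9 to 30 CPM and the mitotic cyclin CYCB1;1 at 15 to 21.4 CPM. The 5 genes of green tissue summed to only 6.85 to 10.8 CPM.

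After 1 h of DEX, 1898 of the 19733 loci tested (9.62%) had changed at an adjusted p under 0.05 in edgeR's quasi-likelihood test, 992 of them higher (5.03%) and 906 lower (4.59%). Changes were small for most of these loci, with a median absolute log2 fold change of 0.5. A change of 2-fold or more was seen for 276 called loci (1.4%), 174 of them risen (0.882%) and 102 fallen (0.517%). Over all loci tested, the median log2 fold change was -0.01. Normalised CPM of the groups did not overlap for 1877 of the 1898 called loci and for 26.4% of all loci tested. A fit to the 6 libraries alone also called 1178 of the 1898 loci (5.97% of those tested), 667 of them higher (3.38%) and 511 lower (2.59%). Genes named below outside the gene lists were taken from the 1125 loci (5.7%) called in both fits with no overlap and a mean log2 CPM of at least 1.

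**Figure D1:**
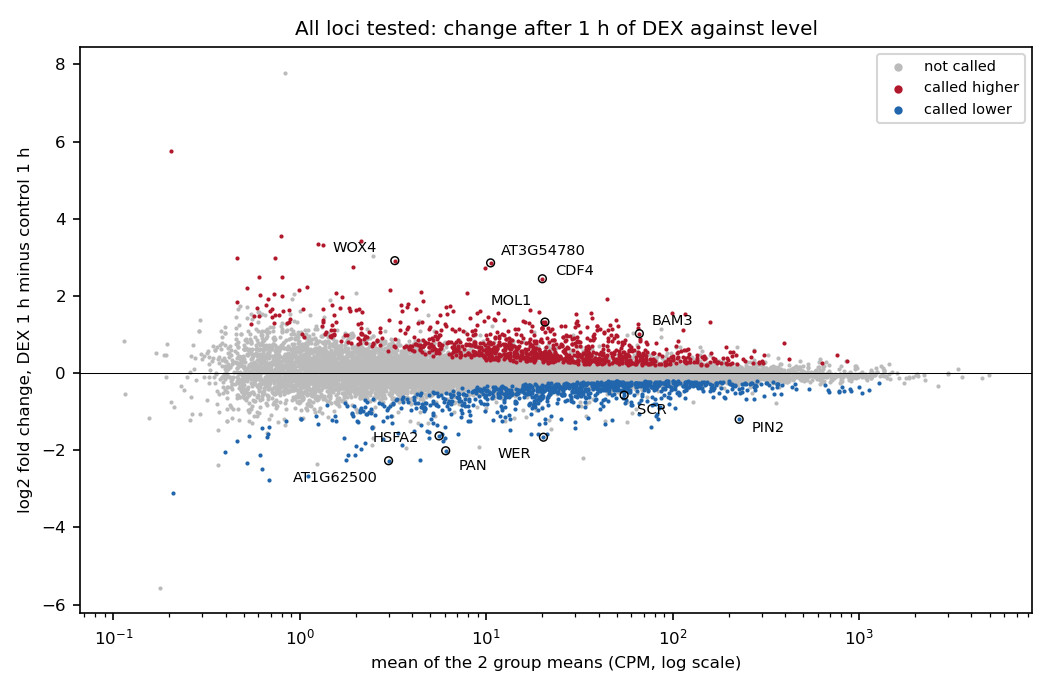
Log2 fold change (DEX 1 h minus control 1 h) of the 19733 loci tested against their mean level in CPM on a log axis, with loci called higher in red, called lower in blue and not called in grey. WOX4, AT3G54780 and CDF4 stand above log2 2, AT1G62500 and PAN stand below -2, and PIN2 is the labelled gene of highest level.

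Promoter sequence is shown for 6 genes that the results below turn on, 3 that rose (TRN2, WOX4, BAM3) and 3 that fell (WER, PIN2, SCR), to set the DOF core beside the measured changes. Each is the 250 bases before the annotated gene start in TAIR10.1, read 5′ to 3′ on the gene's strand, with AAAG and its reverse complement CTTT in capitals. The windows are chr5:18950593-18950842, plus strand for TRN2, chr1:17238186-17238435, minus strand for WOX4, chr4:10949323-10949572, plus strand for BAM3, chr5:4764835-4765084, minus strand for WER, chr5:23100266-23100515, plus strand for PIN2 and chr3:20069737-20069986, plus strand for SCR.
TRN2: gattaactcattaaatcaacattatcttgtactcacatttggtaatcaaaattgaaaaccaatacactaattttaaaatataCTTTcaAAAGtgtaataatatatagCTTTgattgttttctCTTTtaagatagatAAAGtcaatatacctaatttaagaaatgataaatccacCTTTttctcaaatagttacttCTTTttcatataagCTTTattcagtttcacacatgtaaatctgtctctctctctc
WOX4: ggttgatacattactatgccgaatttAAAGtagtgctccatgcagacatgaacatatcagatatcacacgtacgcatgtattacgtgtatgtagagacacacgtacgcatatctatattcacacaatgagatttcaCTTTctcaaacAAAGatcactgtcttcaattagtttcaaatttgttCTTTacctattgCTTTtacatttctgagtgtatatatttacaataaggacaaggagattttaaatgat
BAM3: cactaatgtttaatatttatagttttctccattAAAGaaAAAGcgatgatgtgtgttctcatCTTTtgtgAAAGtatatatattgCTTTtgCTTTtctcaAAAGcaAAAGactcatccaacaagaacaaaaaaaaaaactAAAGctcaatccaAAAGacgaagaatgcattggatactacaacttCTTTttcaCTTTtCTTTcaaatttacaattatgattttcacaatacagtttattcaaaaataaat
WER: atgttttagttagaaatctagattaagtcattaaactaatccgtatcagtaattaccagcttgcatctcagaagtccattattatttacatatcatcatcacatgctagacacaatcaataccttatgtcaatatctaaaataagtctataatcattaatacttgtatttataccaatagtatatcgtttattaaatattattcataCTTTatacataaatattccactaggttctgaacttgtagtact
PIN2: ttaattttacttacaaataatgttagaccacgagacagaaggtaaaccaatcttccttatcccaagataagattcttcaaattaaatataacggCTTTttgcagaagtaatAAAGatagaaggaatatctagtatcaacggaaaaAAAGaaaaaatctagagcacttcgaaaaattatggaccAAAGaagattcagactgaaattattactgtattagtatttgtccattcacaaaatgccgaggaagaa
SCR: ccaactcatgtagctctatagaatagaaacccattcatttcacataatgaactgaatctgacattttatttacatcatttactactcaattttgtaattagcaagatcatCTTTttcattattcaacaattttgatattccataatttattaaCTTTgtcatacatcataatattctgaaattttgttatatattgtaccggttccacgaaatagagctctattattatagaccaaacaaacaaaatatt

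The core occurred 8 times in the TRN2 window, 5 times in that of WOX4 and 13 times in that of BAM3. It occurred 1 time in the WER window, 4 times in that of PIN2 and 2 times in that of SCR. These 6 genes were picked with their changes known, so their core counts do not stand for those of all called loci. So short a word is found almost everywhere, and 98% of the 19635 windows of tested loci held at least 1 copy on either strand. Windows of the 984 loci called higher held 5.19 copies on average, those of the 905 called lower 3.86 and those of the 17746 not called 4.07. At least 8 copies were present in 19% of the windows of loci called higher, in 4.2% of those called lower and in 6.44% of those not called. Base composition differed too, with a mean GC content of 29.7%, 30.4% and 31.6% in these groups in the same order. Other words of the same letters were also more frequent in the windows of loci called higher, with 4.37 AAGA, 4.17 AGAA and 4.8 GAAA on average, against 4.03, 3.94 and 4.41 in those not called, all counted on both strands and with overlaps. The part of base composition in the AAAG difference was not tested, and a match of these letters is not a binding site.

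**Figure D2:**
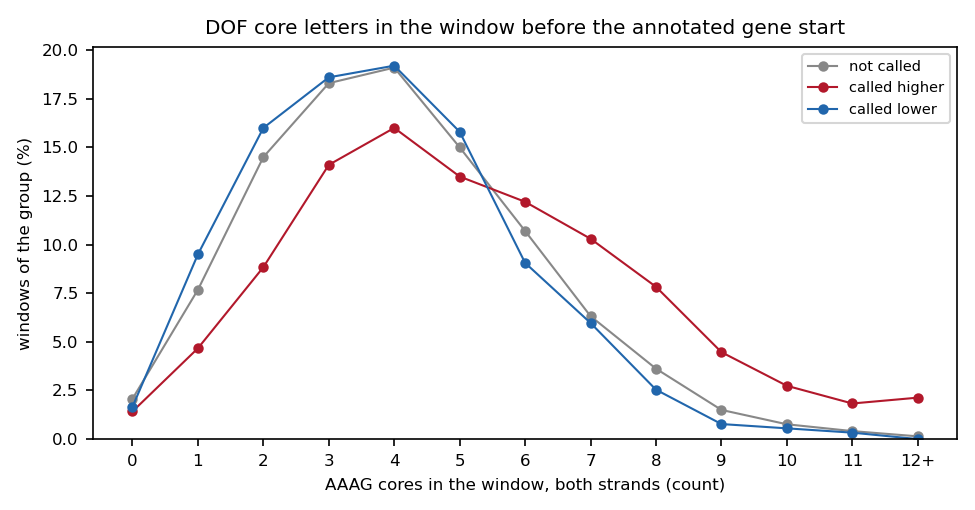
Share of windows (in %) by the number of AAAG cores on both strands, for loci called higher (red), called lower (blue) and not called (grey). The red curve is shifted to the right, with 19% of its windows at 8 or more cores against 6.44% for loci not called.

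Of 11 tested procambium and cambium genes, WOX4 and MOL1 rose and none was called lower (18.2% higher, against 5.03% of all loci tested), and the list median was 0.19. WOX4, a homeobox gene that maintains cambial stem cells, stood at 0.936, 0.591 and 0.732 CPM in the control replicates and at 8.77, 4.73 and 3.63 CPM in DEX replicates 1, 2 and 3. Its lowest DEX value was thus above every control, and DEX replicate 1 was the highest. The rise was 7.53-fold (log2 fold change 2.91 ± 0.43 SE, edgeR adjusted p = 0.000595), the largest among these 1125 loci. MOL1, a leucine-rich repeat receptor kinase that restrains cambium activity, went from 11.6, 11.8 and 12 CPM to 37.6, 28.6 and 22.2 CPM. The controls of MOL1 were nearly equal and all DEX libraries lay above them (log2 fold change 1.32 ± 0.14, adjusted p = 2.04e-05). The cytokinin-linked cyclin CYCD3;1, the class III homeodomain gene HB8 and the receptor gene PXY were not called, at log2 fold changes of -0.14, -0.15 and -0.24. With untested members included, the 13 listed genes summed to 79.6 to 83.8 CPM in controls. The sums were 122, 99.3 and 82.1 CPM in DEX replicates 1, 2 and 3, so the groups overlapped.

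Among 15 phloem genes, 5 rose (33.3%, against 5.03% of all loci tested), none was called lower, and the list median was 0.22. BAM3, the receptor kinase for the CLE45 peptide in developing protophloem, read 41.9, 45.2 and 44.1 CPM in controls and 117, 80.7 and 68.7 CPM after DEX. MAKR5, a membrane-associated amplifier of BAM3 signalling, read 5.68, 6.26 and 6.22 CPM in controls and 22.3, 14.4 and 11.5 CPM after DEX. All DEX libraries stood above all controls for both genes, with replicate 1 highest, and the log2 fold changes were 1.02 ± 0.15 (edgeR adjusted p = 0.00115) and 1.41 ± 0.21 (adjusted p = 0.000509). OPS, a polarly placed protein needed for protophloem continuity, rose 1.94-fold from 18.5 ± 1.77 to 36 ± 3.75 CPM (SD, n = 3; edgeR adjusted p = 4.58e-06). SMXL5 and SMXL3, which promote phloem formation, rose from 18.8 ± 1.81 to 31.8 ± 7.03 CPM and from 12.7 ± 0.349 to 21.4 ± 4.96 CPM (edgeR adjusted p = 0.00126 and 0.00166). The gene for the BAM3 ligand, CLE45, was not called, and neither were APL, a master regulator of phloem identity, the sucrose transporter SUC2 of companion cells and the sieve element protein gene SEOR1, with log2 fold changes from -0.25 to 0.04. The summed level of the 15 genes was 208 to 227 CPM in controls and 379, 295 and 261 CPM in DEX replicates 1, 2 and 3. In bulk tissue, a change in the number of cells of a type and a change in RNA per cell cannot be told apart.

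**Figure D3:**
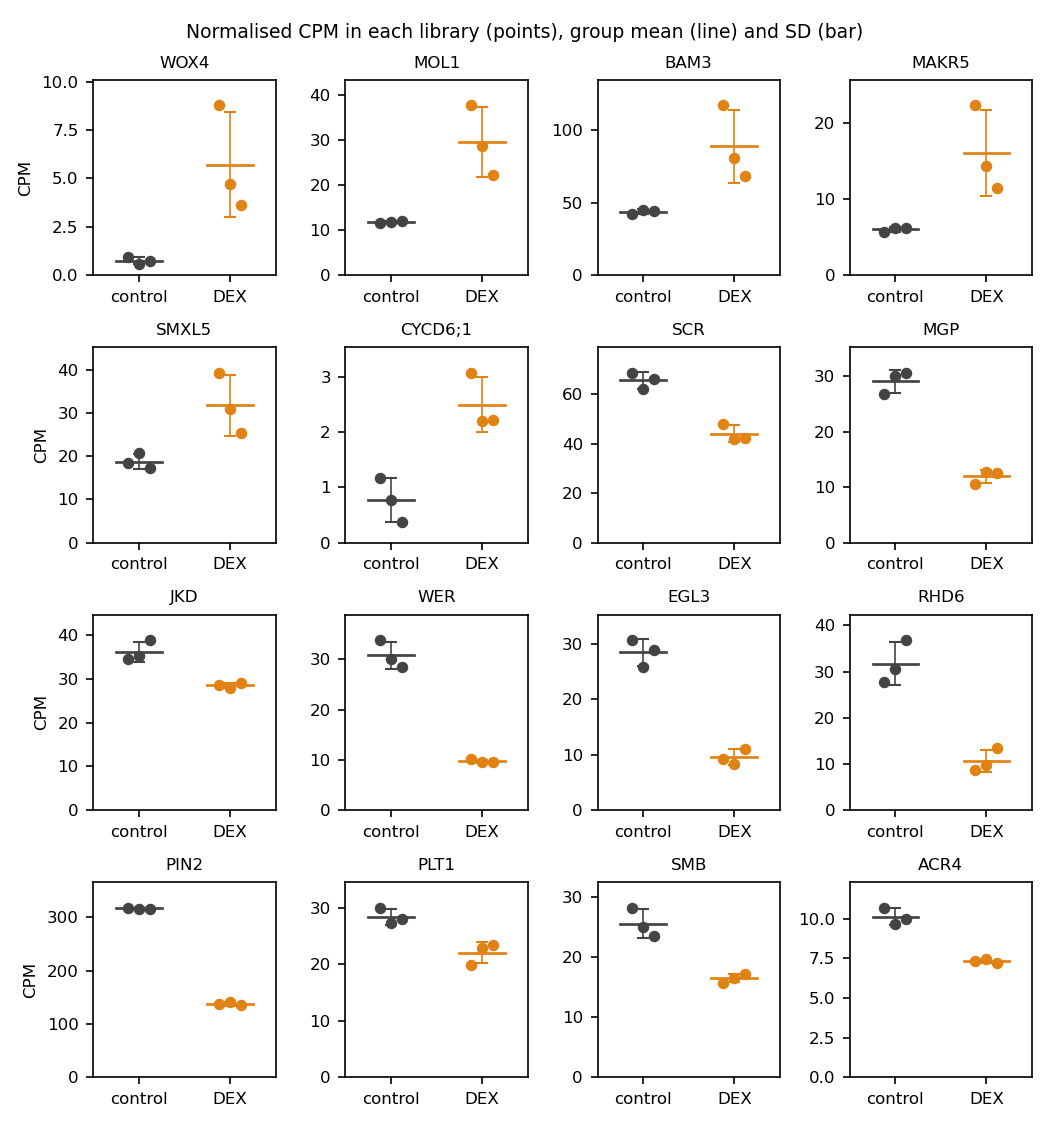
Normalised CPM of 16 genes in each of the 3 control and 3 DEX 1 h libraries (points, replicates 1 to 3 from left to right), with the group mean (line) and SD (bar), on linear axes from 0. The groups overlap in none of the 16 genes, and the smallest differences are those of PLT1 and JKD (1.29-fold and 1.27-fold). All 16 were picked from called loci, and the groups do not overlap for 1877 of the 1898 called loci. The lack of overlap here thus follows from the choice of genes.

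Of 20 xylem genes tested, ACL5, the thermospermine synthase that limits xylem differentiation, was the 1 called (5%, against 9.62% of all loci), a share too near that of all loci to say anything particular of xylem. The list median was -0.16. ACL5 fell from 22.1, 22.3 and 24.3 CPM to 18.2, 12.8 and 11.2 CPM, with no overlap (log2 fold change -0.70 ± 0.16, edgeR adjusted p = 0.0104). Without DEX replicate 2 the call of ACL5 was lost, and it overlaps a locus on the opposite strand. The secondary wall cellulose synthases CESA4, CESA7 and CESA8 were not called, at -0.15, -0.22 and -0.17, nor were the proteases XCP1 and XCP2, at -0.01 and -0.06.

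The TMO5/LHW dimer itself was not called, and genes for 2 of its 4 antagonists rose. Of the 12 genes of this list, 3 were called higher (25%, against 5.03% of all loci) and none lower. The 6-library fit called 2 of them. TMO5 stood at 8.92 ± 0.714 CPM in controls and 9.12 ± 2.53 CPM after DEX, and LHW at 65.9 ± 2.85 and 71.5 ± 3.11 CPM. T5L1, which can replace TMO5, was not called either, at 16.4 ± 1.74 and 19.3 ± 1.57 CPM. SAC51, a basic helix-loop-helix protein whose relatives compete with TMO5 for LHW, read 13.1, 12.5 and 10.9 CPM in controls and 36.3, 25.6 and 20.4 CPM after DEX. Its close relative SACL1 read 3.51, 3.49 and 3.41 CPM in controls and 6.78, 5.28 and 4.98 CPM after DEX. Neither gene's groups overlapped, and the log2 fold changes were 1.17 ± 0.16 (edgeR adjusted p = 0.000226) and 0.71 ± 0.16 (adjusted p = 0.00761). SACL2 and SACL3 were not called, at -0.21 and -0.12. Counts of TMO5, LHW, T5L1, SAC51 and the SACL genes were not all whole. These counts may include reads shared with other loci, and the sources do not state how such reads were counted. SAC51 also overlaps a locus on the opposite strand. The third called gene of these 12, AT3G56770, was near the detection limit (0.317 ± 0.146 CPM in controls, 0.89 ± 0.23 CPM after DEX) and was not called by the 6-library fit.

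Within the DOF family, members of the cycling DOF group rose and TMO6 fell. Of 28 other DOF genes tested, 6 were called higher (21.4%, against 5.03% of all loci) and 3 lower (10.7%, against 4.59%), and the family median was -0.04. CDF4, one of the cycling DOF factors known as repressors of flowering, went from 5.85, 6.5 and 6.28 CPM to 41.5, 31.1 and 28.7 CPM. That is a 5.44-fold rise with a wide gap between the groups (log2 fold change 2.44 ± 0.13, edgeR adjusted p = 7.44e-09). CDF1, CDF2 and CDF3 rose 2.86-fold, 1.89-fold and 2.96-fold (edgeR adjusted p = 4.59e-05, 3.78e-05 and 0.0013). COG1, a DOF gene first known from light signalling, rose 2.5-fold from 11.5 ± 1.61 to 28.7 ± 2.56 CPM, and the weakly expressed DOF1.3 rose 6.69-fold from 0.495 ± 0.0854 to 3.36 ± 0.286 CPM. CDF5 was not called, with controls of 3.45, 2.01 and 0.732 CPM overlapping DEX values of 2.21, 0.495 and 1.46 CPM.

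On the lower side were TMO6, DOF1.4 and DOF4.6, at log2 fold changes of -0.72, -0.55 and -0.43. TMO6, a TMO5/LHW target that promotes vascular division, fell from 20, 22 and 25.2 CPM to 12.5, 12.8 and 15.5 CPM. The procambial DOF genes PEAR1, PEAR2 and HCA2 had group means of 3.36 CPM or less and were not called, with log2 fold changes of -0.36, -0.25 and -0.41. Reads of DOF2.1, which come from the native gene and the construct together, fell to 67.4 ± 7.53 from 85.3 ± 5.14 CPM (log2 fold change -0.34 ± 0.10, edgeR adjusted p = 0.0395). That call was lost in the 6-library fit (adjusted p = 0.0674) and without DEX replicate 2, DEX replicate 3, control replicate 1 or control replicate 2. Nuclear entry of the fusion protein need not change the RNA level of DOF2.1, so that level does not check the labels.

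Of the tetraspanin genes and TRN1, 3 of 12 tested were called higher (25%, against 5.03% of all loci) and none lower. TRN2, the tetraspanin named in the study's title, read 22.5, 23.3 and 23.6 CPM in controls and 43.8, 36.5 and 31.8 CPM after DEX. Its relatives TET6 and TET5 rose 1.47-fold and 1.49-fold (edgeR adjusted p = 0.000211 and 0.0105). TRN1, which acts with TRN2 in organ patterning, was not called, at 21.5 ± 1.24 CPM in controls and 22.3 ± 2.11 CPM after DEX. TRN2 and TET6 each overlap a locus on the opposite strand, and the TET5 call was lost without control replicate 2.

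**Figure D4:**
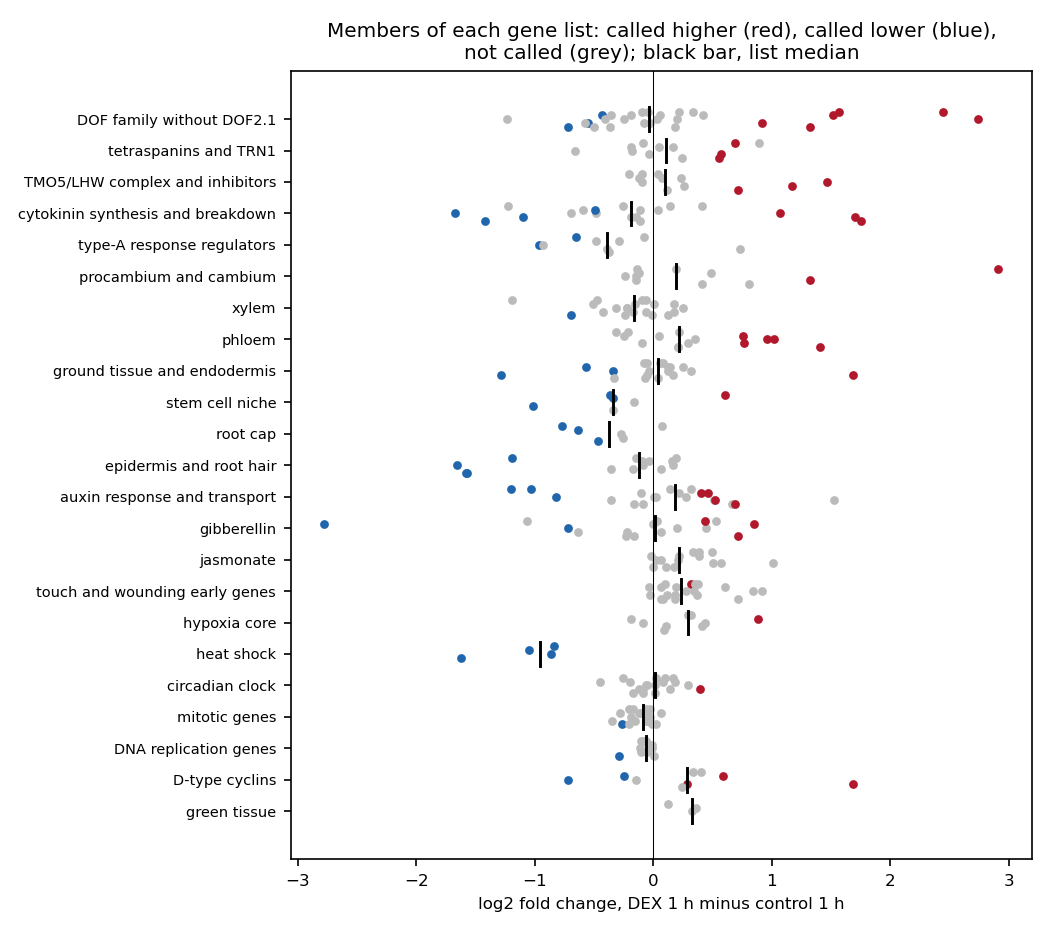
Log2 fold change (DEX 1 h minus control 1 h) of every tested member of the 23 gene lists (points), red where called higher, blue where called lower and grey where not called, with the list median as a black bar. Called members of the phloem list are all red, and those of the epidermis, root cap and heat shock lists are all blue. The DOF, auxin, cytokinin synthesis and stem cell niche lists hold both colours, and the mitotic and DNA replication lists lie close to 0.

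Of 14 genes of the epidermis and root hairs, the fate regulators WER, EGL3, GL3 and RHD6 fell (28.6%, against 4.59% of all loci), and the other 10 were not called. WER, the MYB factor that specifies non-hair cells, read 33.8, 30.1 and 28.5 CPM in controls and 10.1, 9.58 and 9.48 CPM after DEX. Its partner EGL3, a basic helix-loop-helix protein, read 30.7, 25.9 and 29 CPM in controls and 9.2, 8.31 and 11.1 CPM after DEX. Every DEX library lay far below every control for both genes, and the falls were 3.16-fold (log2 fold change -1.66 ± 0.11, edgeR adjusted p = 4.06e-08) and 3-fold (-1.58 ± 0.11, adjusted p = 5.89e-08). GL3, which acts redundantly with EGL3, fell 2.29-fold, from 18.8 ± 1.14 to 8.17 ± 1.87 CPM (edgeR adjusted p = 5.05e-05). It overlaps a locus on the opposite strand. RHD6, which starts hair development in the other cell files, fell 2.98-fold, from 27.7, 30.6 and 36.8 CPM to 8.77, 9.8 and 13.4 CPM (edgeR adjusted p = 1.03e-05). Its counts were not all whole.

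Other genes of the same pathway were not called at 1 h. GL2, a target of the WER complex that suppresses hair fate, read 47.9, 40.3 and 33.7 CPM in controls and 38.9, 38.5 and 32.8 CPM after DEX. The mobile inhibitor gene CPC read 17.5 ± 2.76 and 17.1 ± 1.64 CPM, and TTG1, the WD40 partner of the complex, 22.7 ± 0.576 and 21.3 ± 1.99 CPM. Values of all 3 genes overlapped between the groups. MYB23, a MYB gene related to WER, and the small inhibitory MYB genes TRY and ETC1 were not called, at log2 fold changes of -0.36, -0.09 and 0.06. The hair growth gene RSL4 and the wall genes EXPA7, EXPA18 and COBL9 were not called either, at log2 fold changes of 0.19, 0.16, 0.17 and -0.17. The summed level of the 14 genes was 330 to 360 CPM in controls and 268 to 280 CPM after DEX, and this difference is about that of the 4 called genes.

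Of 19 genes of the ground tissue and endodermis, SCR, JKD and MGP fell (15.8%, against 4.59% of all loci), CYCD6;1 rose, and 15 were not called, with a list median of 0.04. SHR, the mobile factor upstream of these genes, read 49.3, 43.7 and 40.2 CPM in controls and 40.2, 41.9 and 44.3 CPM after DEX. SCR, the GRAS partner of SHR, read 68.7, 62.1 and 66.2 CPM in controls and 47.9, 41.9 and 42.5 CPM after DEX (log2 fold change -0.57 ± 0.08, edgeR adjusted p = 0.000187). MGP, a zinc finger gene activated by SHR and SCR, read 26.7, 30 and 30.6 CPM in controls and 10.5, 12.7 and 12.6 CPM after DEX (-1.28 ± 0.09, adjusted p = 9.28e-08). JKD, a related zinc finger gene that confines SHR movement, fell 1.27-fold, from 36.1 ± 2.34 to 28.5 ± 0.609 CPM (edgeR adjusted p = 0.00724). The groups of SHR overlapped, and those of SCR, MGP and JKD did not. NUC and BIB, zinc finger genes related to MGP and JKD, were not called, at log2 fold changes of -0.07 and -0.06, and neither were the GRAS genes SCL23 and SCL3, at 0.25 and -0.04.

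CYCD6;1, the D-type cyclin that SHR and SCR switch on in formative divisions of the ground tissue, moved the other way. It rose 3.22-fold, from 1.17, 0.768 and 0.366 CPM to 3.07, 2.2 and 2.22 CPM (log2 fold change 1.69 ± 0.32, edgeR adjusted p = 0.00223). Its counts were low, and it overlaps a locus on the opposite strand. The Casparian strip genes CASP1 to CASP5, ESB1 and PER64 and their regulator MYB36 were not called, with log2 fold changes from -0.33 to 0.16. AT1G62500, a lipid-transfer-like gene whose promoter serves as a marker of the cortex, fell 4.83-fold, from 4.97, 4.61 and 5.31 CPM to 0.968, 1.05 and 1.05 CPM (edgeR adjusted p = 1.44e-06), the largest fall under the naming rule.

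Of 6 tested stem cell niche genes, BBM, PLT1 and PLT2 fell, BRAVO rose, and WOX5 and PLT3 were not called. Of 6 root cap genes, SMB, FEZ and ACR4 fell, and BRN1, BRN2 and BFN1 were not called, at log2 fold changes of -0.28, -0.26 and 0.08. The share called lower was 50% in both lists, against 4.59% of all loci, and the 6-library fit called 2 genes lower in each. BBM, an AP2 factor of the PLETHORA group, dropped 2.02-fold, from 17.9, 12.7 and 15.1 CPM to 7.69, 7.98 and 6.91 CPM (edgeR adjusted p = 0.00015). PLT1 and PLT2, the PLETHORA genes that set meristem identity, fell 1.29-fold and 1.27-fold (edgeR adjusted p = 0.00758 and 0.039), and the PLT2 call was lost with library totals, in DESeq2's test, in the 6-library fit (adjusted p = 0.123) and without DEX replicate 1, DEX replicate 2, control replicate 1 or control replicate 3. WOX5, the marker of the quiescent centre, was not called, at 5.32 ± 0.413 CPM in controls and 4.2 ± 0.632 CPM after DEX. BRAVO, a MYB gene that holds quiescent centre cells back from division, rose 1.52-fold, from 10 ± 1.03 to 15.2 ± 0.975 CPM (edgeR adjusted p = 0.000892). In the root cap, SMB, a NAC factor of cap maturation, fell 1.55-fold, from 28.3, 25.1 and 23.5 CPM to 15.8, 16.6 and 17.2 CPM (edgeR adjusted p = 0.000214). The NAC gene FEZ and the receptor kinase gene ACR4 fell 1.71-fold and 1.38-fold (edgeR adjusted p = 0.0245 and 0.0173). The FEZ call was lost in the 6-library fit and without DEX replicate 1, DEX replicate 2, control replicate 1 or control replicate 2, and that of ACR4 without DEX replicate 2 or control replicate 1. The 6 root cap genes summed to 73.9 to 84.2 CPM in controls and 57.2 to 64.5 CPM after DEX.

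**Figure D5:**
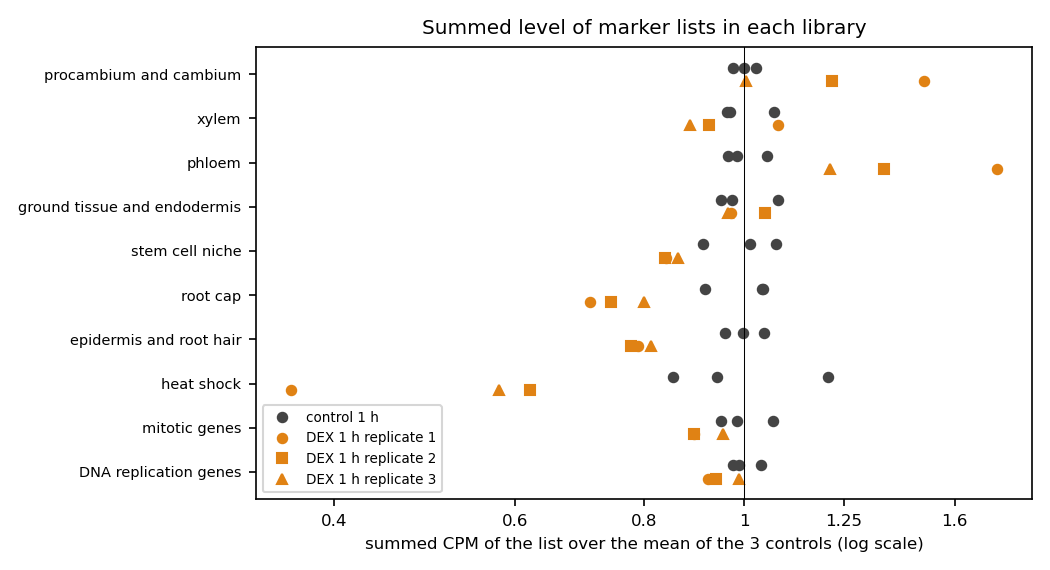
Summed CPM of each marker list in each library divided by the mean of the 3 controls, on a log axis, for controls (grey) and DEX 1 h replicates 1 (circle), 2 (square) and 3 (triangle). The phloem list lies above and the stem cell niche, root cap, epidermis and heat shock lists lie below all controls in every DEX library. The procambium and cambium, xylem, ground tissue, mitotic and DNA replication lists overlap the controls.

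Auxin transport genes split. PIN2, the efflux carrier of epidermis, cortex and lateral root cap, read 318, 316 and 315 CPM in controls and 137, 142 and 135 CPM after DEX. Replicates agreed closely in both groups, and the fall was 2.29-fold (log2 fold change -1.20 ± 0.07, edgeR adjusted p = 8.8e-09). PIN7 and PIN3, carriers of the same family, rose 1.43-fold and 1.32-fold (edgeR adjusted p = 0.00069 and 0.00198), and PIN4 was not called. MP, the auxin response factor that switches on vascular genes such as TMO5, rose 1.61-fold, from 26.2 ± 0.354 to 42.1 ± 1.98 CPM (edgeR adjusted p = 2.8e-06), and it overlaps a locus on the opposite strand. GH3.1 and GH3.5, of the family that conjugates auxin to amino acids, fell 2.05-fold and 1.77-fold (edgeR adjusted p = 0.000318 and 0.000309). Of the auxin-induced repressor genes, IAA2 rose 1.38-fold, and the other 9 tested IAA genes were not called. In all, 4 of 20 auxin genes were called higher (20%, against 5.03% of all loci) and 3 lower (15%, against 4.59%).

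Cytokinin and gibberellin genes also moved in both directions. Of 19 tested genes of cytokinin synthesis and breakdown, 3 were called higher (15.8%, against 5.03% of all loci) and 4 lower (21.1%, against 4.59%). The cytokinin oxidase genes CKX7 and CKX6, whose products break the hormone down, rose 3.25-fold and 2.1-fold (edgeR adjusted p = 2.51e-05 and 1.48e-05). CKX3 and CKX5 fell 2.68-fold and 1.41-fold (adjusted p = 0.00386 and 0.0267). Counts of CKX5 and CKX6 were not all whole, and both overlap other loci. Among the activating LOG enzymes, LOG5 rose and LOG3 and LOG4 fell, and the LOG5 call was lost without control replicate 1. Of 9 cytokinin-induced type-A response regulators, ARR8 and ARR5 were called, both lower (22.2%, against 4.59% of all loci), and the list median was -0.39. Their log2 changes were -0.65 ± 0.12 and -0.96 ± 0.23 (edgeR adjusted p = 0.00239 and 0.0212). The ARR5 call was lost in the 6-library fit (adjusted p = 0.0925) and without control replicate 3, and ARR8 counts were not all whole. Of 16 tested gibberellin genes, 3 were called higher (18.8%, against 5.03% of all loci) and 2 lower (12.5%, against 4.59%). The biosynthetic GA20OX3 fell from 0.878, 0.886 and 1.83 CPM to 0.0538, 0.165 and 0.293 CPM, and GA3OX1 fell 1.65-fold (edgeR adjusted p = 0.00131 and 0.0234). Counts of GA20OX3 were low, at 15, 15 and 30 in controls and 1, 3 and 5 after DEX. Its call was lost in the 6 libraries without DEX replicate 2. The GA3OX1 call was lost without DEX replicate 1 or control replicate 3. The catabolic GA2OX6 and the receptor gene GID1B rose 1.81-fold and 1.65-fold (edgeR adjusted p = 0.0229 and 0.00956). The DELLA gene RGL3 was the other gibberellin gene called higher, with groups that overlapped. None of these 3 was called by the 6-library fit, and the GA2OX6 call was also lost without DEX replicate 1, DEX replicate 2, control replicate 2 or control replicate 3.

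Of 20 mitotic genes, AUR1 was the 1 called (5%, against 9.62% of all loci), with a log2 fold change of -0.26, and of 11 DNA replication genes, CDT1A was the 1 called (9.09%), with -0.29, both lower. These shares are too near that of all loci to say anything particular of the cell cycle. Neither was called by the 6-library fit, and the AUR1 call was lost in 13 of 18 alternatives, among them library totals, DESeq2's test and each fit without DEX replicate 1, DEX replicate 2, control replicate 1 or control replicate 2. The CDT1A call was also lost without DEX replicate 2 or control replicates 1 or 3. The list medians were -0.08 and -0.06, and log2 fold changes ran from -0.35 to 0.07 and from -0.29 to 0.01. Most were small falls, with 18 of the 20 mitotic and 10 of the 11 DNA replication genes below 0. Of all 19733 loci tested, 10282 lay below 0. Among 9 D-type cyclins, CYCD6;1, CYCD4;2 and CYCD3;2 were called higher (33.3%, against 5.03% of all loci) and CYCD5;1 and CYCD2;1 lower (22.2%, against 4.59%). Log2 fold changes were 0.58 and 0.28 for CYCD4;2 and CYCD3;2 and -0.72 and -0.24 for CYCD5;1 and CYCD2;1. Of the 5 called cyclins, CYCD6;1 and CYCD5;1 were also called by the 6-library fit, and CYCD4;2, CYCD3;2 and CYCD2;1 were not. The CYCD4;2 call was also lost without DEX replicates 2 or 3 or any 1 control, that of CYCD3;2 without DEX replicates 1 or 2 or control replicates 2 or 3.

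The 4 listed heat shock genes were all lower. In the wider family by product name, 19 of 168 tested members were called lower (11.3%, against 4.59% of all loci) and 6 higher (3.57%, against 5.03%). The family median was -0.05. HSFA2, a heat-induced transcription factor, read 7.37, 7.86 and 10.1 CPM in controls and 1.24, 3.74 and 3.22 CPM after DEX (log2 fold change -1.63 ± 0.28, edgeR adjusted p = 0.00211). HSP90.1, HSP101 and HSP70 fell 2.08-fold, 1.82-fold and 1.79-fold (edgeR adjusted p = 0.0103, 0.0173 and 0.0298). The 4 genes summed to 202, 223 and 286 CPM in the controls and to 86.2, 147 and 137 CPM after DEX, lowest in DEX replicate 1. The HSP101 call was lost without control replicate 3, and that of HSP70 in the 6-library fit and without DEX replicate 3, control replicate 2 or control replicate 3. In the 6 libraries without DEX replicate 3, none of the 4 genes was called. Counts of HSP101 and HSP70 were not all whole, and HSP101 overlaps a locus on the opposite strand. None of 15 jasmonate genes was called by edgeR, 0 at an unadjusted p under 0.05, and DESeq2's test called 0, while limma voom with sample weights on the 6 libraries called 3 higher. Of the 15, 13 had log2 fold changes above 0, as did 9451 of all 19733 loci tested. The calcium sensor TCH2 was the 1 of 20 touch and wounding genes called, the decarboxylase PDC1 the 1 of 9 hypoxia genes and ELF4 the 1 of 19 clock genes, all higher, at log2 fold changes of 0.32, 0.89 and 0.39. The TCH2 call was lost without control replicate 2, and that of ELF4 without DEX replicate 1, DEX replicate 2 or control replicate 3. The shares called were 5% of touch, 11.1% of hypoxia and 5.26% of clock genes, against 9.62% of all loci. The list medians of the jasmonate, touch and hypoxia genes were 0.22, 0.24 and 0.30, and 18 of the 20 touch genes lay above 0. The part of handling in the changes of other genes was not tested.

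Beyond the lists, the loci with the largest rises included several of unknown role in the root. AT3G54780, a RING finger protein, rose 7.24-fold, from 2.87, 2.48 and 2.32 CPM to 20.4, 19.3 and 16 CPM (edgeR adjusted p = 5.65e-09). It overlaps a locus on the opposite strand. The disease resistance gene RPS2 rose 6.63-fold, though its counts were not all whole and it overlaps a locus on the opposite strand. BGLU7, a beta-glucosidase, AT3G16330, LPP2, a lipid phosphate phosphatase, AT5G24600, and AT2G24700, a B3-domain factor, rose 3.4-fold to 4.27-fold, and AT1G61600 rose 4.44-fold. The 5 further genes with the smallest p were the receptor kinases AT1G67720 and AT2G45340 (2.92-fold and 2.36-fold), MYB92, a regulator of suberin genes (2.67-fold), and the wall enzymes XTH9 and PG1 (2.33-fold and 2.44-fold). XTH9 read 32.1, 30.3 and 29.6 CPM in controls and 71.2, 72.9 and 70.4 CPM after DEX, so its replicates hardly differed within a group. Counts of MYB92 and BGLU7 were not all whole, and MYB92 overlaps a locus on the same strand.

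Several of the largest falls were also in transcription regulators. PAN, a bZIP factor best known from floral organ number, went from 10.5, 9.52 and 9.09 CPM to 1.99, 2.48 and 2.75 CPM, a 4.04-fold fall (edgeR adjusted p = 4.43e-07). PAN counts were not all whole, and it overlaps loci on the opposite strand. AHL18, an AT-hook protein, fell 4.74-fold (edgeR adjusted p = 1.04e-05). KDR and BNQ3, small helix-loop-helix proteins that do not bind DNA themselves, fell 3.65-fold and 3.2-fold (edgeR adjusted p = 0.0021 and 0.00344). BNQ3 read 2.21, 1.49 and 4.92 CPM after DEX, and its log2 fold change ran from -2.3 to -1.36 over the alternatives. Its call was lost in the 6 libraries without DEX replicate 1 or 2. AT1G77200, an AP2-type DNA-binding protein, and AT2G12646, a PLATZ factor, fell 3.38-fold and 2.32-fold. The remaining named loci were AT5G15725, AT1G76620 and the WNK-like kinase AT3G15240, which fell 3.27-fold, 3.22-fold and 2.08-fold. The naming rule admits only genes whose groups do not overlap, and 491 lower loci met it (2.49% of those tested).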

How the data were processed

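RNA of root tips was sequenced from TruSeq Stranded mRNA libraries, per the labels' protocols. The values deposited for each locus were taken to be expected counts, because part of them were not whole. Such counts are estimates that may carry fractions and are not scaled for depth. The submitters' processing notes name CASAVA, GSNAP, HTSeq, edgeR and the build TAIR10. The strand setting and the sharing of reads between loci are not given in the sources used here. Of tested loci, 15.3% had counts that were not whole (tolerance 0.01) in at least 1 of the 6 libraries.

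Counts were rounded and fitted with edgeR 4.0.16 in R 4.3.3 (TMM scaling, filterByExpr with minimum count 10 and minimum total 15, robust quasi-likelihood fit). All 12 libraries of the 4 groups entered, with group as the only term, so the spread was estimated over all of them. Benjamini-Hochberg adjustment of the p-values ran over the 19733 loci tested, and a call needed an adjusted p under 0.05. The SE of a log2 fold change is its size divided by the square root of the F statistic. CPM are normalised to TMM-scaled totals, and ± after a CPM value is the SD over 3 libraries. On simulated data, 97 of 104 genes changed by 1 on the log2 scale and 57 of 96 changed by 0.5 were recovered, with 7 false calls among 19475 loci. The p-values measure the spread between the 3 biological repeats per group that the labels state. Intervals and SE cover no bias of counting or mapping.

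Names and promoter windows come from the RefSeq annotation of TAIR10.1, which matched 28009 of 28775 loci. The deposited tables give no coordinates to compare with it.

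Genes named in the report outside the lists were the 10 highest and 10 lowest by log2 fold change and the further 5 in each direction by p, among loci called by the 12-library and 6-library fits, that also reached a mean log2 CPM of 1 and whose groups did not overlap. In each list up to 4 called members by size of change, and the genes of the TMO5/LHW and DOF pathway, were named. Other list members, including those not called, are given to describe their list and were chosen after their values were seen. The members and the lists were chosen with earlier results of these data known.

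Alternatives were other scaling (DESeq2 1.42.0 size factors, library totals), DESeq2's Wald test, other filters, the 6 libraries alone, the replicate block, limma 3.58.1 voom with sample weights, a 2-fold threshold, and each of the 6 libraries left out. A listed gene is not reported here and is left out of the list counts.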

Additional observations from a re-analysis of the deposited data

How the results depend on the processing

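The count of 1898 called loci was 1773 to 1884 with other scaling, filters or DESeq2's test. It was 1234 (706 higher, 528 lower) in the 6 libraries alone, 3046 (1643 higher, 1403 lower) in the same 6 libraries with limma voom and sample weights, and 276 (174 higher, 102 lower) with a 2-fold threshold. Leaving out each library in turn gave 1194 to 2303 loci (643 to 1223 higher, 551 to 1080 lower), lowest without control replicate 2. In the 6 libraries alone, leaving out DEX 1 h replicate 1, 2 or 3, alternatives chosen after seeing the data, gave 1267, 562 and 1990 loci (724, 334 and 1151 higher, 543, 228 and 839 lower). The cause was not tested. The replicate block gave 2063 loci with 12 libraries and 1715 with 6. Deviations of same-numbered libraries from their group means correlated at 0.052, -0.0027 and 0.088, and the numbers were not taken to pair samples. AUR1 was not called with the block on 12 libraries.

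The 2-fold threshold was not applied gene by gene. TRN2 stayed called in the 18 other alternatives (0.56 to 0.81), and at 1.62-fold it is under that threshold. DOF2.1 lost its call in 8, at -0.31 with library totals, -0.33 in the 6 libraries, and -0.39 to -0.25 over the leave-one-out fits with 12 libraries. In the 6 libraries without DEX replicate 2 or 3 it was -0.38 and -0.23. TMO5 changed sign without DEX replicate 1 (-0.19), without control replicate 3 (-0.02) and in the 6 libraries without DEX replicate 1 (-0.18), and SHR without control replicate 1 (0.01). Leaving out each library gave -0.19 to 0.22 for TMO5 and -0.14 to 0.01 for SHR, and neither was called there. Over all genes named by rule and all alternatives, 1490 values kept direction and call, 141 lost the call, 1 gained it (LHW) and 4 changed sign. Library totals in place of TMM moved the median log2 fold change by 0.029 and gave 1096 loci called higher and 677 lower, against 992 and 906. The higher share of called loci was 61.8% with library totals and 52.3% with TMM, so the balance of directions depends on scaling. Self-test recovery fell from 97 of 104 genes at a log2 change of 1 to 57 of 96 at 0.5, so smaller changes are less often detected at this depth.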

Other observations

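Gene families, grouped by product name and with earlier results of these data known, differed in how many of their tested members were called at 1 h, against 9.62% of all loci tested. By direction, 5.03% of all loci were called higher and 4.59% lower. Of 92 basic helix-loop-helix genes, 27 were called (29.3%), 19 higher and 8 lower, with a family median of 0.20 on the log2 scale. Of 31 AT-hook genes, 9 were called (29%), 3 higher and 6 lower, among them AHL18 and AHL22 on the lower side, the latter at -0.69 (edgeR adjusted p = 1.73e-06). Of 49 genes for pectin methylesterases and their inhibitors, which set the stiffness of the pectin matrix, 4 were higher (8.16%) and 9 lower (18.4%). Of 154 cytochrome P450 genes, 7 were higher (4.55%, near the share of all loci) and 16 lower (10.4%). The relatives CYP705A23 and CYP705A22 were at -1.88 and -0.94 (edgeR adjusted p = 0.000565 and 3.96e-06). Of 53 WRKY genes, 8 were higher (15.1%) and WRKY65 was lower (1.89%), with WRKY28 and WRKY8 at 1.98 and 1.51 (edgeR adjusted p = 0.000268 and 0.0154). Of 373 receptor-like kinase genes, 30 were higher (8.04%) and 33 lower (8.85%).

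Ribosomal proteins were at the other end. Of 319 genes with that product name, 2 were called (0.627%), AT5G02440 higher and MEE5 lower, and the family median was -0.04. Of 54 lipid-transfer genes, AT1G62500 and AT4G15160 were called, both lower (3.7%, against 4.59% of all loci). Of single genes, MYB53 was at 1.07 (edgeR adjusted p = 0.00086) and HB6, a homeobox gene, at 1.12 (adjusted p = 5.91e-08). Among 168 genes named as heat shock proteins or chaperones of the DnaJ type, 25 were called (14.9%), with AT4G21870 at 1.67 (adjusted p = 0.0166) on the higher side and ATERDJ3A at -1.08 (adjusted p = 0.0135) on the lower. Genes chosen here by name were picked after their values were seen and need not meet the report's naming rule. MEE5, for one, was not called by the 6-library fit.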
